A study of Homo sapiens with 6 samples.

Results

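The genes described here were 53 interferon-stimulated genes, taken as a named list: genes induced by type I interferon, the STAT and IRF factors that induce them, the interferon receptor subunits, and sensors of foreign nucleic acid. All 53 were found among the 58735 genes of the count table, and MB21D1 was found under its current symbol, CGAS. Expression was measured by RNA-Seq in BT549, a breast cancer line of the basal-like class, with 3 libraries from cells given the DMSO vehicle and 3 from cells given AS1842856, a small molecule that binds FOXO1 and blocks its binding to DNA. Treatment began the day after plating and lasted 48 h in both groups, at a dose of 200 nM in the sample labels and at a higher dose in the paper's text, a difference that was not resolved here. The labels name no genetic change in either group, so the model was 1 cell line at 1 dose and 1 time point. The libraries of each group were lettered A, B and C and are called biological replicates in the study's methods.

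Type I interferons bind a receptor made of IFNAR1 and IFNAR2, whose associated JAK kinases activate STAT factors. A complex that contains STAT2 and IRF9 then binds the interferon-stimulated response element (ISRE), a pair of GAAA repeats in the promoters of many of these genes. The products detect, bind or degrade viral RNA and DNA, modify proteins with the ubiquitin-like protein ISG15, or hold back virus entry and assembly. Tumour cells can express part of this set without added interferon.

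Library totals lay between 15289500 and 22981832 counts, and the members took 0.153% to 0.156% of the counts in DMSO libraries and 0.116% to 0.118% in AS1842856 libraries. Levels are given as CPM, the counts scaled to library size with TMM factors, as mean ± SD with n = 3 per group, or as FPKM, which is also divided by gene length. The line's mesenchymal genes VIM, CD44, CAV1, SPARC and CDH2 were present in every library, with a summed level of 4135 to 4237 CPM in DMSO and 3075 to 3116 CPM with AS1842856, and all 5 were called lower, by 0.19 to 0.59 on the log2 scale. CDH1, EPCAM, ESR1 and PGR had at most 8 counts in any library. Of 3 leukocyte markers, CD3E had no counts, CD14 had too few to be tested, and PTPRC was called higher (1.15 ± 0.433 against 3.16 ± 0.480 CPM). The summed level of these 3 genes was 1.02 to 2.02 CPM in DMSO and 3.48 to 4.65 CPM with AS1842856, and the part of either marker list in the results below was not tested. In bulk RNA, fewer cells expressing a gene and less RNA per cell cannot be told apart.

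Most members tested fell with AS1842856, and the 4 called higher were CGAS, STAT2, PML and IRF3. Of the 53 members, 50 had enough reads to be tested. By edgeR's quasi-likelihood test with Benjamini-Hochberg adjustment over 14338 genes and a threshold of 0.05, 38 of the 50 were called lower and 4 higher, while 28.4% of all genes tested were called lower and 27.6% higher, or 56% in either direction. A log2 fold change of -1 or less was called for 20 members, against 6.33% of all genes, and one of 1 or more for no member, against 4.27% of all genes. Log2 fold changes of -3 or less were found in 5 members, IFIT2, OASL, RSAD2, MX1 and TMEM173, and in 0.481% of all genes. Of these 5, IFIT2, OASL and RSAD2 had enough reads to be tested only through their DMSO libraries. Among the other members at -1 or less, the same held for OAS1, USP18, SAMD9L and DHX58. The place of these genes in the counts of large falls therefore depends on the group in which they were high. The median log2 fold change of the members tested was -0.79, and that of all genes tested was 0.00. In 42 members every AS1842856 library lay below every DMSO library, and in 5, the 4 called higher and GBP2, every one lay above, where the share over all genes was 30.3% for below and 29.5% for above. With 3 libraries against 3, the smallest p of an exact permutation test is 0.10, so the calls rest on the model fitted across all genes.

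**Figure D1:**
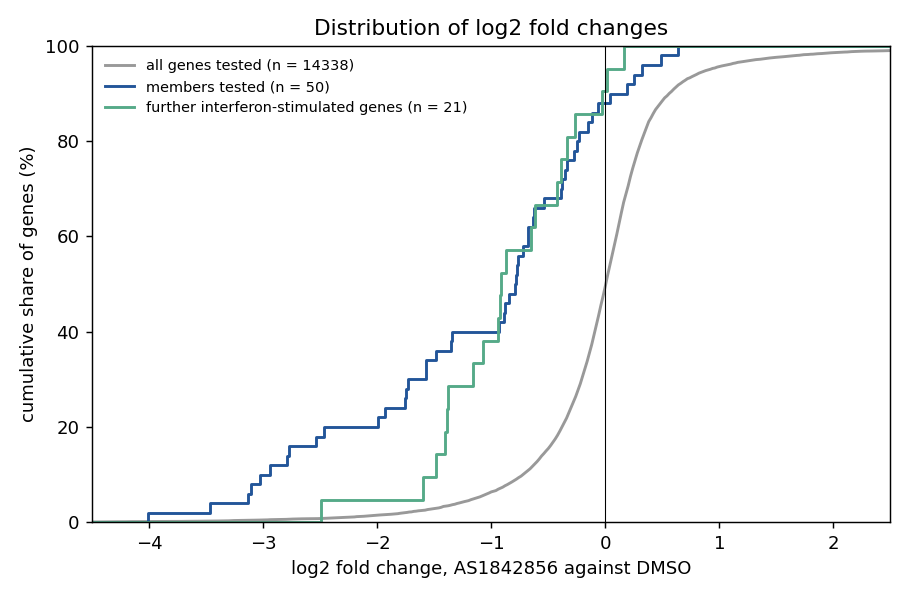
Cumulative share of genes (y axis, percent) by log2 fold change between AS1842856 and DMSO (x axis), for all 14338 genes tested, the 50 members tested and 21 further interferon-stimulated genes outside the list. Both interferon curves lie left of the curve of all genes, with medians of -0.79 and -0.92 against 0.00.

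The summed level of all 53 members was 1538 ± 25.8 CPM in DMSO and 1175 ± 11.5 CPM with AS1842856, a change of -23.6%. Without ADAR, IFITM3 and EIF2AK2, the 3 members with the highest CPM in DMSO, the sum was 856 ± 9.29 against 629 ± 6.89 CPM, a change of -26.5%. The shift was alike in the 3 treated libraries, in which the median member lay -0.87, -0.81 and -0.76 (A, B and C) from its DMSO mean on the log2 scale and 44, 43 and 45 of the 50 members tested lay below that mean.

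The start-proximal sequences of 6 members are shown as examples with and without a match to the core of the ISRE. They are IFIT1, RSAD2 and IFIH1, which fell strongly, ISG15 and IFI6, which fell less, and STAT2, which was called higher. Each line gives bases upstream of the RefSeq start (GRCh38.p14), 5' to 3' on the strand of the gene and outside its exons in GENCODE release 29, with ISRE cores (GAAANNGAAA or its reverse complement TTTCNNTTTC) in capitals. The stretches lie at chr10:89392386-89392545 (plus strand, IFIT1), chr2:6877527-6877664 (plus, RSAD2), chr2:162318704-162318863 (minus, IFIH1), chr1:1013263-1013422 (plus, ISG15), chr1:27672219-27672378 (minus, IFI6) and chr12:56360156-56360315 (minus, STAT2).
IFIT1: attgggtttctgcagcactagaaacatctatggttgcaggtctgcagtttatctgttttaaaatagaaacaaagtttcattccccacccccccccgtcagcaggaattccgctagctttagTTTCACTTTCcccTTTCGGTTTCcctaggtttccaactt
RSAD2: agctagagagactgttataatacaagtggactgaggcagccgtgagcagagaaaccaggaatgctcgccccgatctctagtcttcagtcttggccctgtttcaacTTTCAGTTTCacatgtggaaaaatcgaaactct
IFIH1: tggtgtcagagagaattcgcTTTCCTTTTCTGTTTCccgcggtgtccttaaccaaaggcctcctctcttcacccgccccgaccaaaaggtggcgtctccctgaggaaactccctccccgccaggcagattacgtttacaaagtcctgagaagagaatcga
ISG15: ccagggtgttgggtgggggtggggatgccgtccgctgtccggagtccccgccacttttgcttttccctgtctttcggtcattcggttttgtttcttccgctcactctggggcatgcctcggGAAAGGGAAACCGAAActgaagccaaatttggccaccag
IFI6: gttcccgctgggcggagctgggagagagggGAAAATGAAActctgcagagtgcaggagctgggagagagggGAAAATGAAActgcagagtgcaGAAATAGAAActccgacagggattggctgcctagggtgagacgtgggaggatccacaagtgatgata
STAT2: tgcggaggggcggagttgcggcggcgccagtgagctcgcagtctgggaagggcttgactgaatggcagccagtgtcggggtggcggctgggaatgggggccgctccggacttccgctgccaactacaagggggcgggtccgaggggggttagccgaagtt

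IFIT1 had 2 cores, the first of them starting 116 bases before the start. RSAD2 had 1, which began 145 bases before the start. IFIH1 had 3, of which 2 overlap and are shown, and the third began 21 bases before the start and ran into a GENCODE exon. ISG15 had 2 that overlap, from 113 and 107 bases before the start, and IFI6 had 3. The STAT2 window held no ISRE core, which does not show that the gene lacks the element. The windows of OAS1, SAMD9L, HERC6 and DDX58, not shown here, held none either. These 4 genes had log2 fold changes of -2.94, -2.47, -1.58 and -1.49. Among tested members with a window, the median log2 fold change was -0.87 for the 24 with a core and -0.78 for the 13 without. A fall of at least 1 was called for 11 of the 24 (45.8%) and 4 of the 13 (30.8%). The 6 examples by themselves do not show a link between a core and the direction of change.

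The receptor subunits and the factors had log2 fold changes between -0.54 and 0.49. IFNAR1, the subunit that binds ligand with lower affinity, was at 64.9, 65.4 and 68.1 CPM in DMSO libraries A, B and C and at 61.1, 60.3 and 57.3 CPM in AS1842856 libraries A, B and C. The groups did not overlap, and the difference was small (log2 fold change -0.15, SE 0.05, edgeR adjusted p = 0.00982) and was not called without AS1842856 library C (-0.13, adjusted p = 0.0628). IFNAR2, the high-affinity subunit, had 1.87, 1.69 and 2.10 CPM in DMSO and 1.5, 1.62 and 1.29 CPM with AS1842856, a difference that did not pass the threshold (-0.36, SE 0.29, edgeR adjusted p = 0.306). The order of the 2 subunits was the same per length, with 10.4 ± 0.268 FPKM for IFNAR1 and 0.406 ± 0.0442 FPKM for IFNAR2 in DMSO.

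STAT2, which joins IRF9 in the complex that binds the ISRE, rose. Its level was 23.9, 24.1 and 23.8 CPM in the DMSO libraries and 32.2, 33.5 and 34.7 CPM in the treated ones. The 3 treated libraries all stood above the narrow DMSO range, by 1.4-fold (log2 fold change 0.49, SE 0.07, edgeR adjusted p = 2.17e-09). IRF9, its DNA-binding partner, had 3.87, 4.82 and 3.55 CPM against 3.06, 3.55 and 2.97 CPM, and its fold change of -0.33 (SE 0.20) did not pass (edgeR adjusted p = 0.140). The lowest DMSO library and the highest treated library of IRF9 were nearly equal. IRF9 shares 1838 exon bases with AL136295.5 on the same strand, a gene with 42.2% as many counts and a log2 fold change of -0.62.

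The other IRF factors split by direction. IRF3, which is activated by sensor signalling and is the most abundant of the 5 factors per length, was at 82.5, 88.4 and 82.7 CPM in DMSO and 99.8, 99.1 and 103 CPM with AS1842856. All treated libraries were higher (log2 fold change 0.25, SE 0.05, edgeR adjusted p = 5.05e-07), although IRF3 shares 734 exon bases with BCL2L12, a gene on the opposite strand with 76.3% as many counts and a log2 fold change of 0.07. IRF1, an interferon-induced activator, fell from 37.2, 31.9 and 34.3 to 28.3, 29.2 and 28.4 CPM (log2 fold change -0.27, SE 0.07, edgeR adjusted p = 0.000426). IRF7, which amplifies interferon production, had 5.37, 4.49 and 4.36 CPM in DMSO and 2.88, 3.42 and 3.53 CPM with AS1842856. Its log2 fold change was -0.54 (SE 0.18, edgeR adjusted p = 0.00872), but the call was lost without DMSO library A (-0.43, adjusted p = 0.0812) and with DESeq2 (-0.53, adjusted p = 0.0687).

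**Figure D2:**
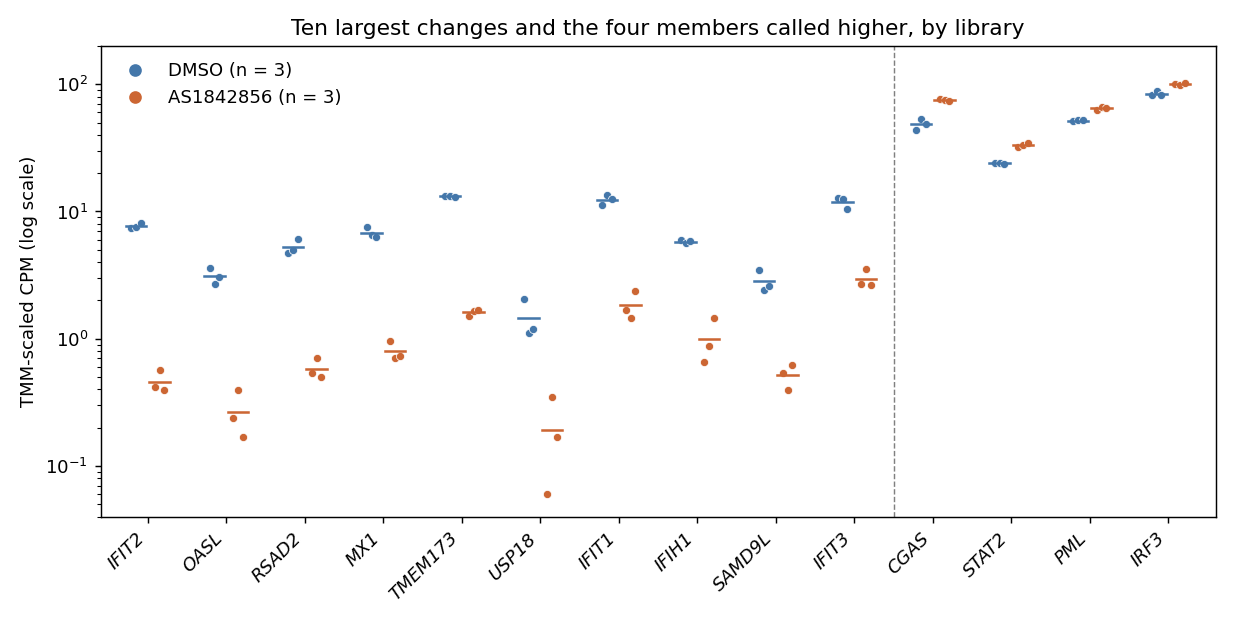
TMM-scaled CPM (log axis) in each of the 6 libraries for the 10 members with the largest change and a mean of at least 1 CPM in 1 group (left of the dashed line) and for the 4 members called higher (right). Points are libraries and bars are group means. DMSO points lie above all AS1842856 points for the 10 on the left, and below them for CGAS, STAT2, PML and IRF3.

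The sensors of foreign nucleic acid showed some of the largest falls and also the largest rise. TMEM173, which encodes STING, the adaptor that passes on the signal of cytosolic DNA, was at 13.3, 13.3 and 13.1 CPM in DMSO and 1.5, 1.66 and 1.68 CPM with AS1842856. The treated libraries kept 12.3% of the DMSO level, with little spread in either group (log2 fold change -3.02, SE 0.16, edgeR adjusted p = 3.83e-47). CGAS, the DNA sensor that makes the second messenger for STING, went the other way. It had 43.6, 53.5 and 48.8 CPM in DMSO and 77.1, 74.6 and 73.4 CPM with AS1842856, a 1.55-fold rise with no overlap (log2 fold change 0.63, SE 0.05, edgeR adjusted p = 1.09e-23).

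All 3 members of the RIG-I-like receptor family, which detect viral RNA in the cytosol, fell. IFIH1 (MDA5) went from 5.92, 5.66 and 5.81 CPM to 0.660, 0.876 and 1.46 CPM. Treated library C was the highest of its group and still far below the DMSO libraries (log2 fold change -2.54, SE 0.23, edgeR adjusted p = 9.69e-22). DDX58 (RIG-I) had 34.3, 32.4 and 30.4 CPM in DMSO and 10.7, 12.7 and 11 CPM with AS1842856 (log2 fold change -1.49, SE 0.09, edgeR adjusted p = 3.35e-41). DHX58 (LGP2) was low throughout, at 1.14, 0.781 and 1.45 CPM against 0.480, 0.263 and 0.280 CPM (-1.75, SE 0.45, edgeR adjusted p = 0.000374). Per length, DDX58 was the most abundant of these 3 in DMSO, with 7.39 ± 0.447 FPKM against 1.13 ± 0.0267 for IFIH1 and 0.291 ± 0.0872 for DHX58. EIF2AK2 (PKR), a kinase that stops translation when it binds double-stranded RNA, and ADAR, which edits such RNA, fell by 0.39 (SE 0.05) and 0.12 (SE 0.04) on the log2 scale. EIF2AK2 shares 35 exon bases with GPATCH11, which lies on the opposite strand and had a log2 fold change of 1.68.

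The effector families held most of the large changes, and within a family the members differed widely. IFIT2, of the family of tetratricopeptide proteins that bind viral RNA, had the largest change of all members. It was at 7.42, 7.49 and 8.18 CPM in DMSO and 0.420, 0.569 and 0.393 CPM with AS1842856. That is 6.19% of the DMSO level (log2 fold change -4.01, SE 0.25, edgeR adjusted p = 2.00e-39), the rank of 22 from the lowest among 14338 genes. IFIT2 shares 65 exon bases with LIPA on the opposite strand, a gene with far more reads and a log2 fold change of -0.47.

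IFIT1 was at 11.2, 13.5 and 12.6 CPM in DMSO and 1.68, 1.45 and 2.36 CPM with AS1842856 (log2 fold change -2.77, SE 0.16, edgeR adjusted p = 1.82e-41). IFIT3 had 12.7, 12.6 and 10.5 CPM against 2.70, 3.50 and 2.64 CPM (-2.0, SE 0.15, edgeR adjusted p = 4.24e-30). Neither gene's groups overlapped. IFIT5 changed least of the 4, by -0.68 (SE 0.14, edgeR adjusted p = 7.51e-06), and was not called in FPKM without a filter (limma adjusted p = 0.0555).

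The oligoadenylate synthetases, which make the activator of RNase L, showed a like spread. OASL, a family member without that catalytic activity, had 3.60, 2.67 and 3.07 CPM in DMSO and 0.240, 0.394 and 0.168 CPM with AS1842856. Its treated libraries held 16 counts in all against 177 in DMSO, a ratio of 11.4 after scaling to depth (95% exact interval 6.81 to 20.3, counting error only), and its log2 fold change was -3.47 (SE 0.37, edgeR adjusted p = 3.16e-17). OAS1 fell from 55 counts to 7, a ratio of 8.08 (3.67 to 21.0). Its log2 fold change of -2.94 moved to -3.63 without AS1842856 library A and to -2.46 without AS1842856 library B. OAS3 fell by 1.73 (SE 0.18) on the log2 scale. OAS2, at -0.63 (SE 0.24, edgeR adjusted p = 0.0151), lost its call with DESeq2 (adjusted p = 0.0871), without DMSO library A (0.0556) or AS1842856 library C (0.112), and in FPKM without a filter (0.0849).

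Among the GTPases, MX1, a dynamin-like protein that blocks viral nucleocapsids, was at 7.52, 6.51 and 6.35 CPM in DMSO and 0.960, 0.701 and 0.729 CPM with AS1842856. The treated libraries kept 11.6% of the DMSO level (log2 fold change -3.11, SE 0.23, edgeR adjusted p = 4.65e-30). MX2, its neighbour on chromosome 21, started much higher at 39.3 ± 1.89 CPM and fell by 0.88 (SE 0.07). GBP1, a guanylate-binding protein, fell from 69.3 ± 3.36 to 18.2 ± 0.454 CPM (-1.93, SE 0.07, edgeR adjusted p = 2.34e-80), while GBP2 had 14.1 ± 0.953 and 16.1 ± 0.776 CPM (0.19, SE 0.10, edgeR adjusted p = 0.101).

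RSAD2 (viperin), a radical SAM enzyme that makes a chain-terminating nucleotide, was at 4.74, 5.01 and 6.03 CPM in DMSO and 0.540, 0.701 and 0.505 CPM with AS1842856 (log2 fold change -3.14, SE 0.27, edgeR adjusted p = 5.15e-24). All treated libraries were below 1 CPM and all DMSO libraries above 4 CPM. CMPK2, a nucleotide kinase gene next to it on chromosome 2, fell by 0.79 (SE 0.31, edgeR adjusted p = 0.0206). That call was lost with DESeq2, in FPKM without a filter, and without DMSO library B, DMSO library C or AS1842856 library C (adjusted p = 0.0572 to 0.0928).

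All 4 members grouped under the ISG15 system were called lower. ISG15, the ubiquitin-like modifier, went from 21.3 ± 0.598 to 12.9 ± 0.679 CPM (log2 fold change -0.73, SE 0.10, edgeR adjusted p = 3.68e-12). HERC5, the ligase that attaches it, and HERC6, a related ligase, fell by 1.75 (SE 0.12) and 1.58 (SE 0.22) on the log2 scale. USP18, the protease that removes ISG15 and also restrains the interferon receptor, had 2.05, 1.11 and 1.18 CPM in DMSO and 0.06, 0.350 and 0.168 CPM with AS1842856. DMSO library A was the highest, and the groups did not overlap (log2 fold change -2.79, SE 0.47, edgeR adjusted p = 4.76e-08). Its counts fell from 84 to 12 in sum, a ratio of 7.20 (95% exact interval 3.91 to 14.5). The log2 fold change of USP18 was -3.59 without AS1842856 library B, in a range of -3.59 to -2.43 with each library left out.

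SAMD9L, an antiviral factor that also restrains cell growth, was at 3.46, 2.41 and 2.58 CPM in DMSO and 0.540, 0.394 and 0.617 CPM with AS1842856 (log2 fold change -2.47, SE 0.33, edgeR adjusted p = 1.35e-11). Its paralogue SAMD9 fell by 0.88 (SE 0.11), and TRIM21, a cytosolic antibody receptor, did not pass the threshold at 0.04 (SE 0.13). The ADP-ribosylation genes PARP14, PARP9 and DTX3L fell by 1.57, 1.35 and 0.85 on the log2 scale. The last 2 share 217 exon bases on opposite strands.

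The 2 nuclear body genes moved apart. PML, the scaffold of the PML nuclear body, had 51.4, 52.1 and 51.9 CPM in DMSO and 62.8, 66.3 and 64.9 CPM with AS1842856 (log2 fold change 0.32, SE 0.05, edgeR adjusted p = 5.03e-08). Every treated library was above every DMSO library. SP100, another component of these bodies, fell by 0.93 (SE 0.08).

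Membrane factors and the remaining interferon-induced genes changed less. IFITM3, which blocks virus entry at endosomes and was the most abundant member per length, went from 170 ± 14.3 to 107 ± 2.32 FPKM (log2 fold change of its counts -0.68, SE 0.04, edgeR adjusted p = 1.90e-35), and IFITM1 fell by 1.35 (SE 0.28). Both are close copies of IFITM2, and IFITM1 and IFITM2 share 351 annotated exon bases, so reads could have been divided among them. BST2 (tetherin), which holds budding virus at the membrane, did not pass (-0.23, SE 0.19). Of the 7 other induced genes, IFI35, EPSTI1, IFI44 and IFI6 fell, by 0.25 to 0.78 on the log2 scale, of which IFI6 and EPSTI1 were not called in FPKM without a filter (limma adjusted p = 0.0716 and 0.0842), and IFI44L (-0.78, SE 0.42), XAF1 (-0.38, SE 0.19) and IFI27 (-0.06, SE 0.38) did not pass. IFI44L passed without AS1842856 library C (-1.25, adjusted p = 0.0350), and XAF1 without AS1842856 library B (-0.51, adjusted p = 0.0414).

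**Figure D3:**
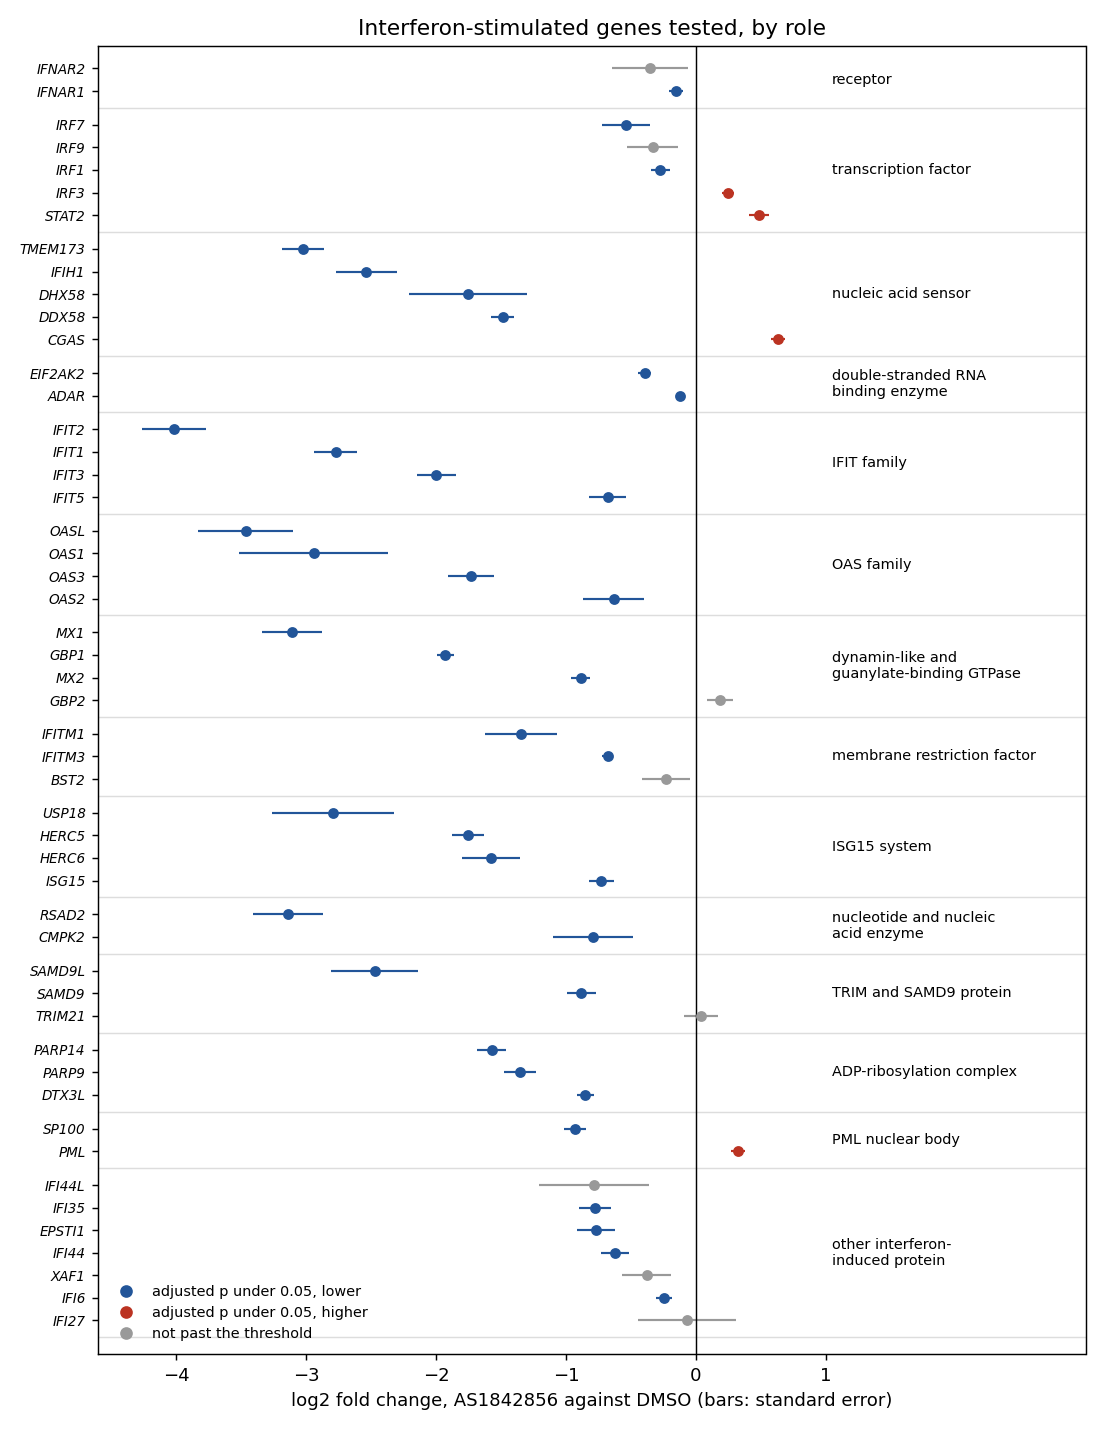
Log2 fold change (x axis) of the 50 members tested, grouped by role. Bars are standard errors, blue points passed an edgeR adjusted p of 0.05 in the lower direction, red points in the higher direction, and grey points did not pass. IFIT2 lies furthest to the left at -4.01, followed by OASL, RSAD2, MX1 and TMEM173, and the 4 red points are CGAS, STAT2, PML and IRF3.

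The other 3 members had too few reads to be tested. IFITM2 had 0, 2 and 1 counts in DMSO and 0, 2 and 5 with AS1842856, and ISG20, an exonuclease, had 15, 3 and 12 against 4, 9 and 5. TRIM22 had no counts in any library, which allows a level of up to 0.131 CPM in the deepest library and 0.196 CPM in the shallowest.

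As a description, the log2 fold changes were further below 0 among members with a low level in DMSO. Of the members tested, 14 were under 1 FPKM in DMSO and 23 with AS1842856. The median log2 fold change was -0.93 for the 37 members under 5 FPKM in DMSO and -0.62 for the 13 at or above it. The Spearman correlation between DMSO level and log2 fold change was 0.38 across the 50 genes, which share the same 6 libraries and are not independent. The DMSO level is also a term of the fold change. Low members such as OAS1, USP18, IFIT2, OASL, RSAD2, SAMD9L and DHX58 passed the filter only through their DMSO libraries. No conclusion is drawn from this trend. GBP1 and DDX58 were exceptions among the 13 members at or above 5 FPKM, with log2 fold changes of -1.93 and -1.49. GBP1 ranked 6 per length in DMSO, at 13.8 ± 0.689 FPKM, and had 3.63 ± 0.0945 FPKM with AS1842856. DDX58 went from 7.39 ± 0.447 to 2.62 ± 0.235 FPKM. Among the largest changes, the abundant genes ADAR and IFI6 did not appear, with log2 fold changes of -0.12 and -0.25.

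**Figure D4:**
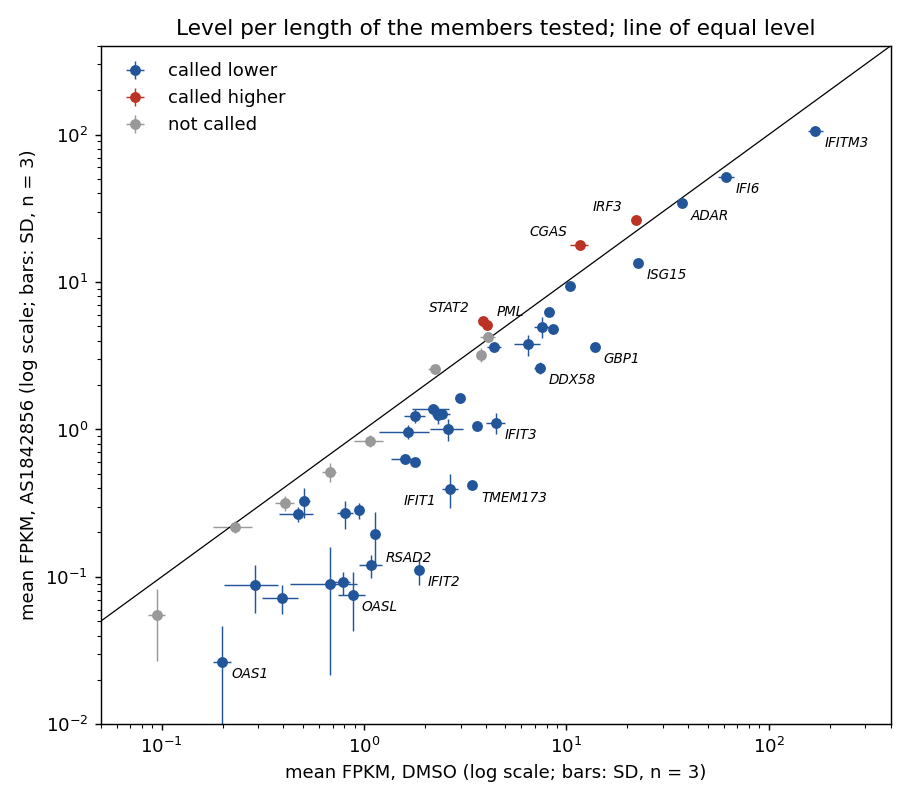
Mean FPKM with AS1842856 (y axis) against mean FPKM in DMSO (x axis), both on log scales, for the 50 members tested. Bars are SD (n = 3) and the line marks equal levels. IFI6 and ADAR lie near the line at the upper right, GBP1 lies well below it, and the members furthest below the line are at DMSO levels under 5 FPKM.

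Several members lie side by side, and the genes nearest to members, but outside the list, moved in both directions. The 4 IFIT genes lie together on chromosome 10, where the span of LIPA (log2 fold change -0.47) overlaps those of IFIT1, IFIT2 and IFIT3 on the opposite strand and ends 29 bases from IFIT5, and PANK1 (0.34) is the nearest tested gene on the other side. OAS1, OAS3 and OAS2 lie together on chromosome 12, and the nearest tested genes on either side, PTPN11 and DDX54, had log2 fold changes of 0.25 and 0.20. Of 71 tested protein-coding genes nearest to a member, 24 were called lower and 24 higher, and their median log2 fold change was -0.06. Over all genes tested, 28.4% were called lower and 27.6% higher. Among the 71, 6 were called lower by at least 1, against 6.33% of all genes. Of these 6, GBP3 (-1.38) and GBP4 (-2.49) belong to the further interferon-stimulated genes described below.

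Promoter windows, from 250 bases before to 50 after a RefSeq start (GRCh38.p14), were at hand for 38 members, of which 37 were tested. Members with no window included IFIT2, OASL, TMEM173 and USP18, which fell strongly, and CGAS, PML and IRF3, which were called higher. An ISRE core (GAAANNGAAA, both strands, overlapping matches counted) was in a window of 25 of the 38 (65.8%), against 4.38% of 27305 genes with a window. The 24 tested members with a core had a median log2 fold change of -0.87, with 20 called lower and none higher. A fall of at least 1 was called for 11 of these 24 (45.8%) and for 4 of the 13 without a core (30.8%). The 13 without a core had a median of -0.78, with 10 called lower and 1 higher, STAT2, the single member among the 4 called higher that had a window. IFI27, at -0.06, and BST2, at -0.23, held 2 cores each, and OAS1, at -2.94, held none. Outside the list, 372 tested genes had an ISRE core in a window. Of these, 34.1% were called lower and 10.8% fell by at least 1, against 30.2% and 5.63% of 9746 tested genes without a core. Their medians were -0.03 and -0.00. Neither group was cleared of other interferon-stimulated genes, such as those of the further list described below, and their part in these shares was not tested.

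A GAS core, the element of interferon gamma (TTCNNNGAA, its own reverse complement), was in 10 of the 38 members (26.3%) against 9.38% of all genes, and 5 of its 11 distinct genomic sites overlap an ISRE core. The FOXO core GTAAACA (reverse complement TGTTTAC) was in 4 of the 38 (10.5%), namely IFNAR1, CMPK2, SAMD9L and SP100, against 4.19% of all genes, and overlaps no ISRE core. A match gives only letters in a window and does not show that a factor bound there.

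**Figure D5:**
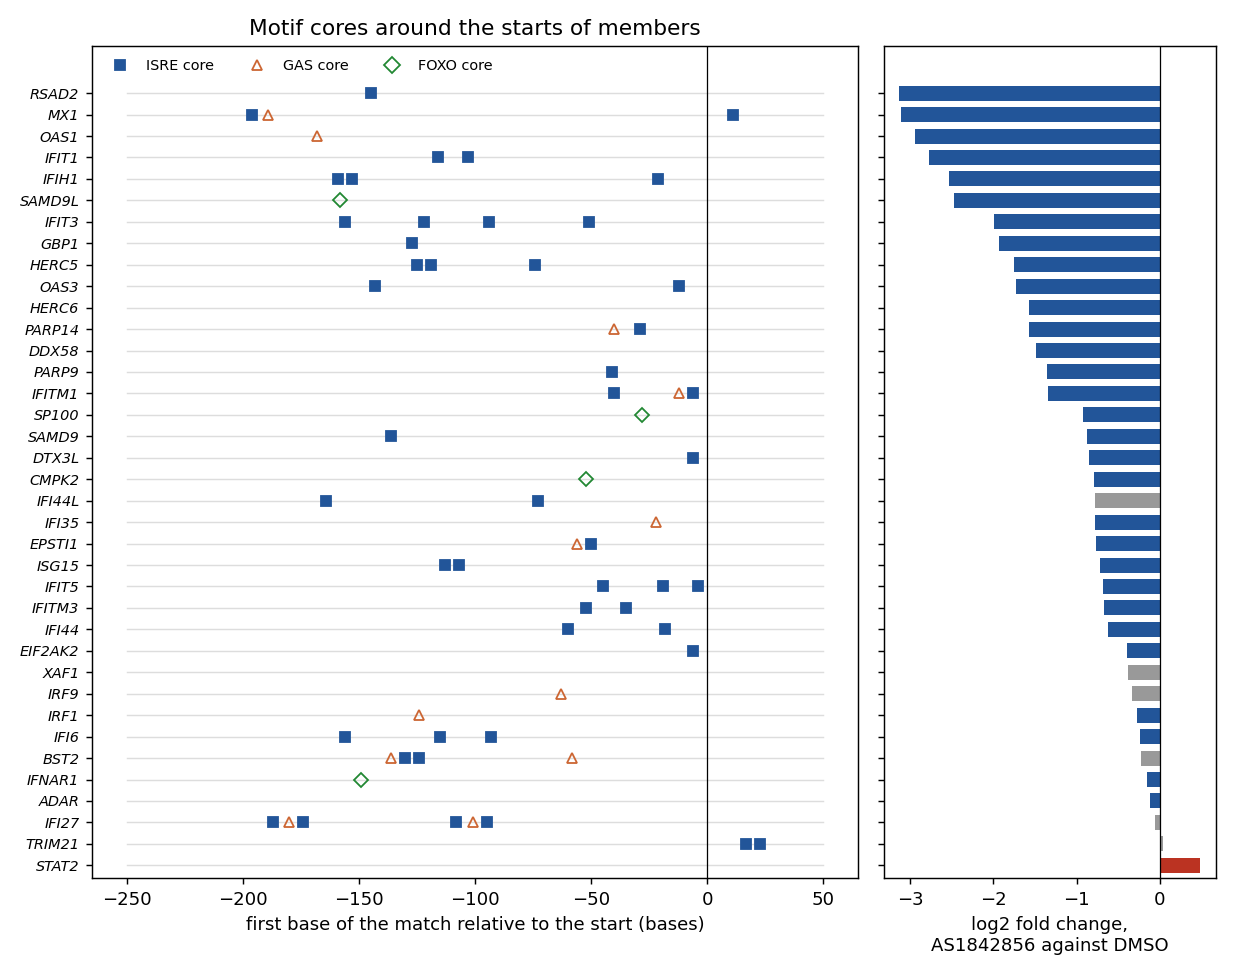
First base of each ISRE, GAS and FOXO core relative to the RefSeq start (x axis of the left panel, bases) in the 37 tested members with a window, ordered by log2 fold change (bars, right panel; blue lower, red higher, grey not past the threshold). Genes with more than 1 start have the matches of all their windows on 1 line, so a site in overlapping windows appears once per start, as in IFI27. ISRE cores stand from the top rows, as in RSAD2 and IFIT1, down to IFI27 and TRIM21, whose changes are close to 0. Members with no window, such as IFIT2, OASL and TMEM173, are not drawn.

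Other genes of the pathway, listed outside the members, gave the setting. The counts called in these lists stand beside 28.4% lower and 27.6% higher over all genes tested. Of 9 interferon ligand genes, 6 had no counts in any library, and the summed level of all 9 was 0.228 to 0.861 CPM in DMSO and 0.505 to 0.780 CPM with AS1842856. IFNE alone could be tested and did not pass (0.39, SE 0.49). Of 7 other receptor subunits and JAK kinases, 6 were tested, and 4 were called lower and none higher. The largest change was that of JAK1, a kinase of the receptor, from 270 ± 1.63 to 187 ± 5.57 CPM (log2 fold change -0.53, SE 0.04, edgeR adjusted p = 2.75e-32). Of 4 negative regulators tested, PTPN2, a phosphatase acting on JAK kinases, was called lower (-0.18, SE 0.06, edgeR adjusted p = 0.0109) and the other 3 did not pass.

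Among 9 tested adaptors, kinases and related factors of the sensor pathways, 3 were called higher and 4 lower, against 27.6% and 28.4% of all genes tested. TLR3, the endosomal receptor of double-stranded RNA, had the largest change, at a low level (0.732 ± 0.113 against 0.285 ± 0.0601 CPM, log2 fold change -1.37, SE 0.51, edgeR adjusted p = 0.0162). The 3 higher ones were MYD88 (0.50), MAVS (0.36), the mitochondrial adaptor of the RNA sensors, and TBK1 (0.26), the kinase that acts on IRF3. Of 25 further interferon-stimulated genes, 21 were tested. In this list 16 were called lower and 1 higher, LAP3 (0.17, SE 0.04), with a median of -0.92. GBP4, another guanylate-binding protein, changed most, from 5.65 ± 0.409 to 1.01 ± 0.278 CPM (-2.49, SE 0.23, edgeR adjusted p = 6.97e-21).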

How the data were processed

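RNA-Seq libraries of BT549 cells (3 DMSO, 3 AS1842856) were grouped by the treatment and replicate letter in their labels. The paper names STAR for the mapping of reads, and the deposited count table holds unnormalized read counts for every gene and library. The submitters' processing notes name CASAVA, Bowtie 0.12.2 and GRCh38 (hg38). Which of STAR and Bowtie gave the deposited counts was not resolved here. FPKM values, scaled by the authors to gene length and library size, were deposited too. The counting tool, the annotation and the use of strand are not given in the sources used here, so overlapping genes on opposite strands could share reads. All 58735 gene identifiers were found in GENCODE release 29 (Ensembl 94, GRCh38), the source of symbols and positions.

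Counts were analysed with edgeR 4.0.16 in R 4.3.3: filterByExpr (minimum count 10, minimum total 15), TMM scaling, glmQLFit with robust estimation and glmQLFTest over all 14338 genes kept, with Benjamini-Hochberg adjustment at 0.05. The SE was the log2 fold change divided by the square root of F. The test was first checked on simulated data. Members, gene lists and tests were chosen with earlier results of these data known. Named were the 10 members with the largest change (adjusted p under 0.05, and 1 CPM or more on average in 1 group), the factors, receptors and sensors, every member called higher, and the called member with the largest change of each other list; further members were named in groups, and GBP2, OAS1 and those that changed call were chosen after their values were seen. Intervals and the limit of 3 counts for a count of 0 cover counting error only. The common biological coefficient of variation was 0.0374. Replicate pairs differed by more than sampling noise (chi-square per degree of freedom 2.38 to 3.28). Alternatives were DESeq2 1.42.0, other scalings and filters, each library left out, a replicate block, and limma-trend (limma 3.58.1) on the deposited FPKM, taken as log2(FPKM + 1) or, with the smaller pseudocount, log2(FPKM + 0.1). The smallest exact permutation p for 3 against 3 is 0.10. Motif windows came from RefSeq starts, and 46 of the 52 windows of members held transcribed bases found in a GENCODE release 29 transcript. A leukocyte marker of the planned list is not reported here.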

Additional observations from a re-analysis of the deposited data

How the results depend on the processing

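Counts of members called lower ranged from 30 to 39 over the alternatives (38 of 50 as reported, against 28.4% of all genes). DESeq2 called 35 of 52 lower (12.6% of all genes), and FPKM without a filter 33 of 52 (13.2%). A mean of 50 counts left 39 members tested, of which 30 were called lower (32.7% of all genes). A mean of 0.5 FPKM also left 39, with 30 called lower (25.0%). With each library left out, 36 to 39 were called lower, against 26.1% to 26.7% of all genes. Under the added demand of a log2 fold change of -1 or less, 20 of 50 were called, against 6.33% of all genes. The count called higher was 4 in every alternative planned, where 47.2% to 50.3% of all genes called were higher. The median log2 fold change was -0.86 to -0.72 with each library left out, -0.56 on log2(FPKM + 1), -0.72 on log2(FPKM + 0.1) and -0.41 on log2(FPKM + 1) without a filter, scales that shrink changes of low genes, IFIT2 for example from -4.01 to -1.37 with a pseudocount of 1. Members whose groups did not overlap numbered 47, or 46 with DESeq2 size factors. With TMM scaling the share over all genes was 30.3% for below and 29.5% for above. Among single members the direction changed only for TRIM21 (-0.014 without DMSO library B and -0.019 without AS1842856 library A, in a range of -0.019 to 0.101 with each library left out) and IFI27 (0.104 without DMSO library C, in a range of -0.179 to 0.104), neither called under any of these. Of the 50 members tested, 41 kept their side of the threshold under those of the 15 alternatives that tested them.

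Same-lettered libraries did not deviate together (r = 0.04, -0.01 and -0.00), so the letters were not treated as pairs. With the replicate block, 38 members were called lower and 4 higher, with a median of -0.81, and 27.9% of all genes were called lower. An alternative added after the data were seen left out 8 tested members that share exon bases with a gene of at least 10% as many counts. Of the 42 left, 32 were called lower and 3 higher, against 28.4% and 27.6% of all genes. The median of the 42 was -0.78. Depth limits the low members most: USP18 and OAS1 rest on 12 and 7 counts in the treated libraries.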
